A study of Mus musculus with 4 samples.

Results

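The collagen genes of the mouse were followed in sorted cells of pre-tumorigenic dermal hyperplasia. They are all genes whose GENCODE symbol is Col, a number, a and a number, which gave 44 of the 22524 genes counted. All 44 such symbols of GENCODE M21 had a row. RNA was sequenced from 4 libraries, 2 in each of 2 groups. In both groups the mice carried Tyr::NrasQ61K, an oncogenic NRAS mutant driven by the promoter of the tyrosinase gene Tyr, which is active in pigment cells. Both also carried Tyr::CreERT2, a Cre recombinase that works only in the presence of tamoxifen, and R26R-LSL-tdTomato, a red fluorescent reporter that Cre switches on. The Ezh2Y646N group carried ColA1-LSL-Ezh2Y646N in addition, a mutant of the histone methyltransferase Ezh2 that Cre switches on, and the NrasQ61K group did not. Tamoxifen was given in vivo, and cells positive for tdTomato were sorted by FACS, fluorescence-activated cell sorting. Age, sex, allele dose and the number of animals per library were not given in the sources used here. The comparison asks which collagen genes differ once mutant Ezh2 is added to NrasQ61K.

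Collagens are proteins of the extracellular matrix built from chains that wind into a triple helix. Fibrillar collagens (types I, III and V in skin) form the fibres of the dermis and are made mainly by fibroblasts. Type VI forms beaded filaments around cells, and the FACIT collagens sit on the surface of fibrils. Type IV forms the network of basement membranes, under epithelia and around vessels, nerves and muscle cells. Type VII anchors the epidermal basement membrane to the dermis, and type XVII, a transmembrane collagen of hemidesmosomes, fastens basal keratinocytes to it. Collagen chains are hydroxylated and folded in the endoplasmic reticulum, trimmed of their propeptides outside the cell, cross-linked by lysyl oxidases and bound by integrins and discoidin domain receptors.

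Total counts were 14808801 to 20600297 per library. Levels are CPM, read counts scaled to TMM-adjusted library sizes, and 1 count was worth 0.0480 to 0.0691 CPM. Replicates differed beyond sampling noise: the chi-square divided by its degrees of freedom was 40.2 for Ezh2Y646N and 87.8 for NrasQ61K. The library labelled Ezh2Y646N replicate 2 lacked Y-linked RNA (Ddx3y at 0.138 CPM) that the other 3 libraries had (88.3 to 129.7 CPM). The Ezh2Y646N libraries were thus not repeats of 1 RNA sample. Beyond this nothing says whether replicates came from separate animals, and p-values then measure only the spread between these libraries, which may be technical for NrasQ61K. With 2 libraries against 2, an exact permutation test cannot go below a 2-sided p of 0.333, so single sums and shares were given no test. Ezh2 itself was at 135 and 91.6 CPM in the Ezh2Y646N libraries and at 171 and 75.1 CPM in the NrasQ61K libraries, and its log2FC, the fitted log2 ratio of Ezh2Y646N over NrasQ61K, was -0.11 (standard error, SE, 0.39, edgeR's adjusted p = 0.944). These counts cannot tell mutant from endogenous Ezh2, so they do not check the labels. Nras (log2FC -0.07, SE 0.23, edgeR's adjusted p = 0.944) and Tyr (0.44, SE 0.22, 0.435) did not pass the test either. The 12 melanocyte markers summed to 4144 and 4168 CPM in the Ezh2Y646N libraries and to 2855 and 3632 CPM in the NrasQ61K libraries. Dct and Tyrp1, enzymes of melanin synthesis, led them. Of the 12, 11 had a log2FC above 0 (median 0.24), where 46.0% of all genes did. EdgeR and DESeq2 called 0 of them (0 at an unadjusted p under 0.05 in edgeR). RNA of other skin cells was also present: basal keratinocyte markers summed to 11139 to 24455 CPM.

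Collagen genes took 0.469% and 0.741% of all counts in the Ezh2Y646N libraries and 0.883% and 0.831% in the NrasQ61K libraries. The Wilson 95% intervals were 0.466 to 0.473%, 0.737 to 0.746%, 0.878 to 0.888% and 0.827 to 0.835%, and they cover counting error only. The share was thus lower in both Ezh2Y646N libraries than in either NrasQ61K library, with means of 0.605 ± 0.192% and 0.857 ± 0.0368% (SD, n = 2 each). As with every level below, fewer cells of a type and less RNA per cell cannot be told apart in these pooled cells.

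By length, the epithelial collagen Col17a1 was the most abundant member, at a mean over the 4 libraries of 347 CPM per kb of exon. Col1a1 followed at 136 and Col3a1 at 69.8 CPM per kb, the chains of dermal fibres. Next came the basement membrane chain Col4a1 at 49.1, Col18a1 at 47.5, Col16a1 at 45.7, Col1a2 at 45.4, Col4a2 at 37.0 and Col7a1 at 34.8 CPM per kb. These orders are of means, and single libraries differ. In NrasQ61K replicate 1 the level per kb was 233 for Col1a1 and 187 for Col17a1, so Col17a1 was not first there. In Ezh2Y646N replicate 1 it was 54.6 for Col4a1 and 43.1 for Col1a1.

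**Figure D1:**
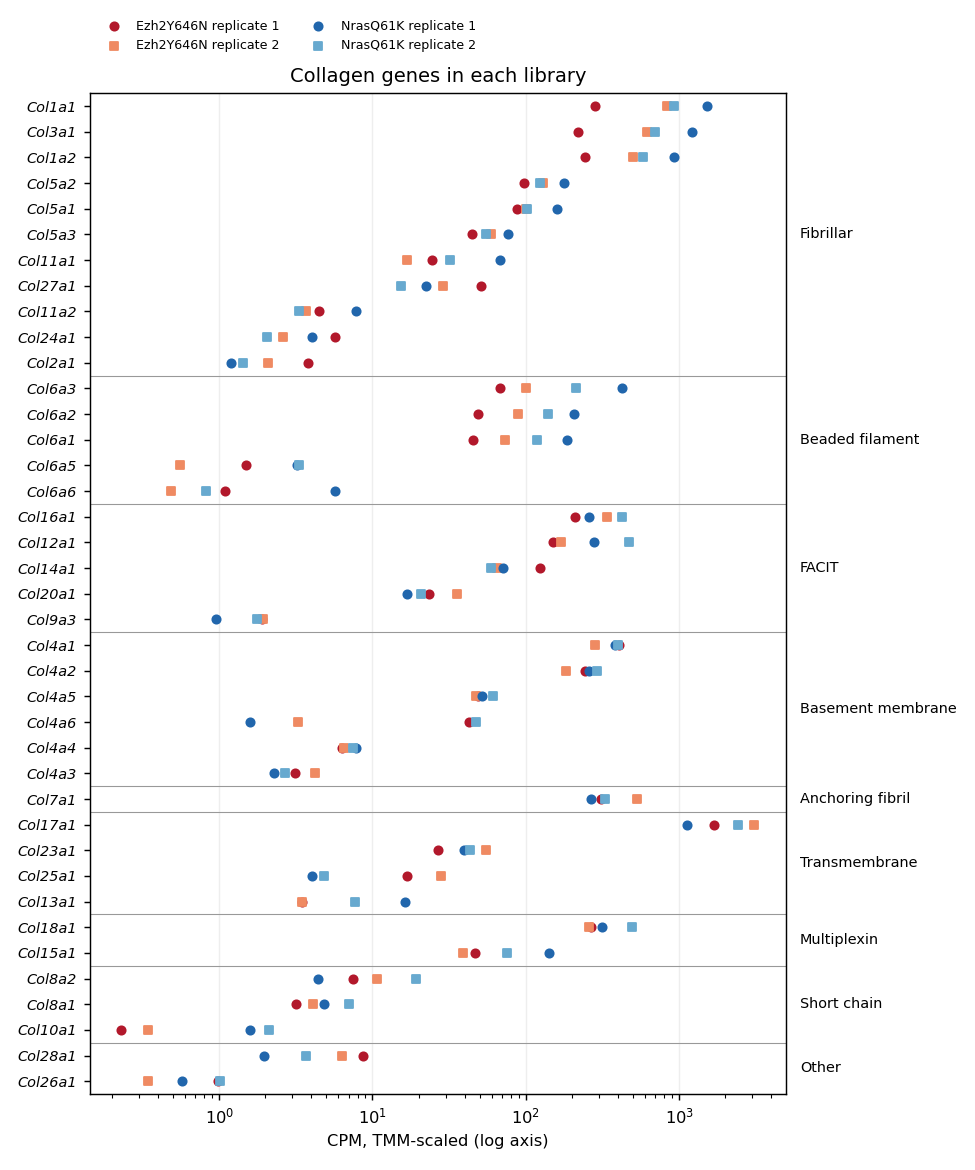
TMM-scaled CPM (log axis) of the 39 collagen genes tested, by structural class and in order of mean level, with 1 point per library and circles for replicate 1. Col17a1 lies furthest to the right in every library but NrasQ61K replicate 1, where Col1a1 and Col3a1 lie beyond it. Col4a6 splits into a pair of high and a pair of low libraries. The blue NrasQ61K points lie to the right of the red Ezh2Y646N points for Col6a1, Col6a2 and Col6a3.

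Of the 44 genes, 39 had enough counts to be tested, and 35 of these reached the filter's level, 0.602 CPM, in all 4 libraries. At an adjusted p under 0.05 in edgeR's quasi-likelihood test, 1 collagen gene rose in the Ezh2Y646N libraries (Col25a1) and 0 fell. Among all 14265 genes tested the shares were 1.10% higher and 0.673% lower. At an unadjusted p under 0.05, 3 collagen genes were higher and 11 lower (7.69% and 28.2% of the 39), where all genes gave 7.28% and 7.02%. The groups did not overlap in 18 collagen genes that were lower (46.2%, against 23.1% of all genes) and in 7 that were higher (17.9%, against 21.1%). The log2FC was below 0 in 28 of the 39 and above 0 in 11, where 54.0% and 46.0% of all genes were. Its median was -0.36 over the collagen genes and -0.04 over all genes tested. The lower counts of 11, 18 and 28 genes include Col10a1, which passed the filter only through the NrasQ61K libraries. The filter thus favoured its place among them. DESeq2 called 7 of the lower genes (Col6a1, Col6a2, Col6a3, Col11a1, Col12a1, Col13a1 and Col15a1) where it called 2.72% of all genes lower, and limma voom called 0, where it called 0.449%. Both also called Col25a1 higher, where they called 3.63% and 1.05% of all genes higher. EdgeR called 2 lower collagen genes (Col6a3 and Col12a1) without NrasQ61K replicate 1 and 6 without NrasQ61K replicate 2, fits in which it called 221 and 393 of all genes lower, against 96 with every library. The calls of lower collagen genes thus rest on the tool and on the libraries kept.

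**Figure D2:**
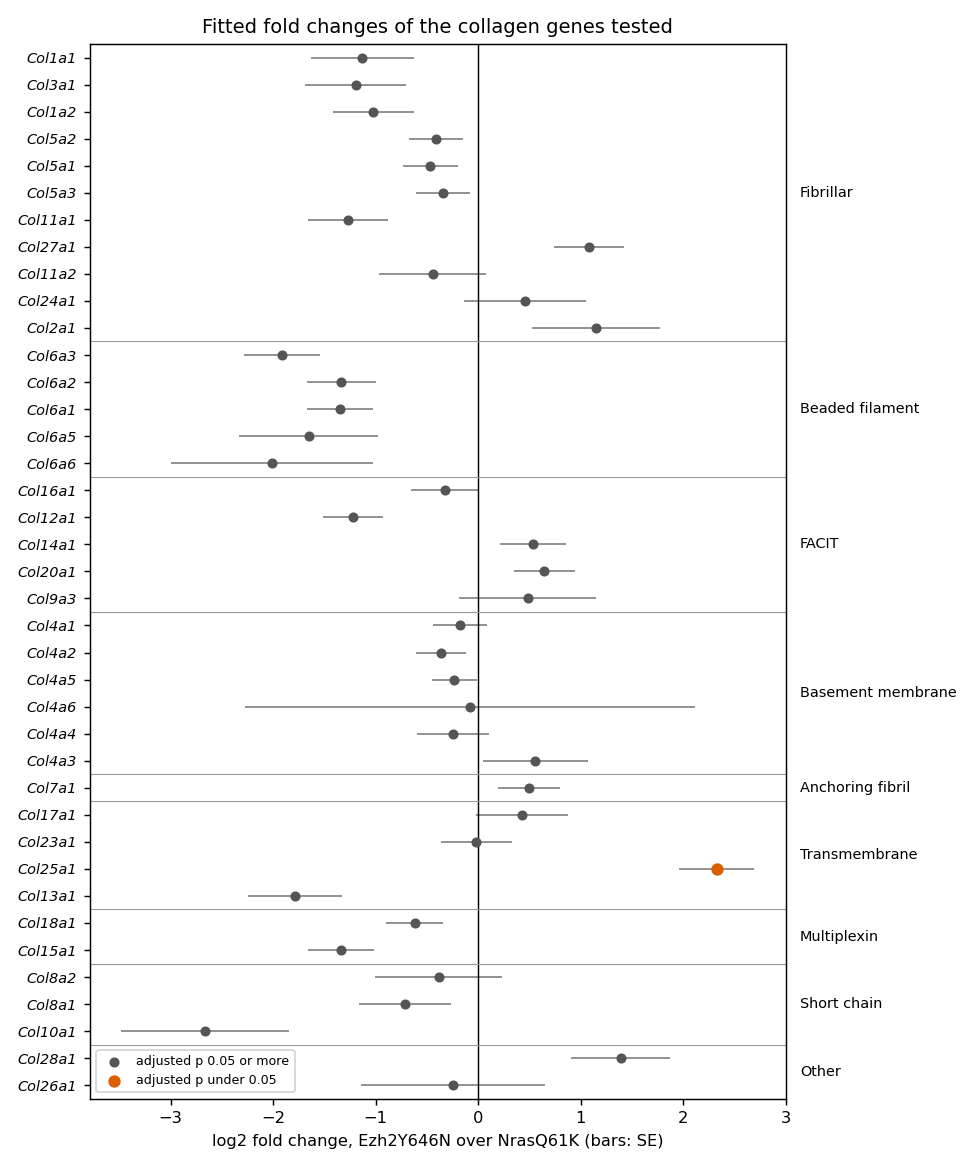
log2FC of each tested collagen gene, Ezh2Y646N over NrasQ61K, in edgeR, with bars of 1 SE and the genes grouped by class. Only the orange point, Col25a1 at 2.33, passed an adjusted p of 0.05, and the 5 tested type VI genes all lie between -2.01 and -1.33.

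Type I collagen, the main fibre of the dermis, is made of Col1a1 and Col1a2 chains. Col1a1 (ENSMUSG00000001506, GRCm38 chromosome 11, 94936224 to 94953042, plus strand) was at 283 and 838 CPM in the Ezh2Y646N libraries and at 1532 and 921 CPM in the NrasQ61K libraries. Both Ezh2Y646N libraries were thus below both NrasQ61K libraries, but 1 of them only narrowly. The log2FC was -1.13 (SE 0.50, edgeR's adjusted p = 0.371) and did not pass the test. With 1 library left out it ran from -2.12 (without Ezh2Y646N replicate 2) to -0.55 (without Ezh2Y646N replicate 1), and it was -0.72 without NrasQ61K replicate 1. Col1a2 (chromosome 6, 4504814 to 4541544) was at 243 and 501 CPM against 929 and 584 CPM, and its log2FC was -1.02 (SE 0.40, edgeR's adjusted p = 0.288; -1.64 to -0.60 with 1 library left out). Its libraries were in the same order as those of Col1a1.

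The Ezh2Y646N allele is named for the ColA1 locus, the usual name of a targeting site beside Col1a1. The ratio of Col1a1 to Col1a2 counts was 1.16 and 1.67 in the Ezh2Y646N libraries and 1.65 and 1.58 in the NrasQ61K libraries. One library of the group with the allele was below the others and its partner was the highest of all 4, so the ratio did not separate the groups. Any part of the allele in the Col1a1 values was not tested.

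Type III collagen, a homotrimer of Col3a1 that accompanies type I, was measured through Col3a1 (chromosome 1, 45311538 to 45349706, plus strand). It was at 218 and 614 CPM in the Ezh2Y646N libraries and at 1216 and 692 CPM in the NrasQ61K libraries, a log2FC of -1.20 (SE 0.50, edgeR's adjusted p = 0.328; -2.14 to -0.64 with 1 library left out). Again the groups did not overlap and the spread within each was wide. The ratio of Col3a1 to Col1a1 counts was 0.772, 0.733, 0.794 and 0.751 in Ezh2Y646N replicates 1 and 2 and NrasQ61K replicates 1 and 2. It varied by 1.08-fold across the libraries, while Col3a1 itself varied by 5.58-fold.

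The stretch before the start of Col3a1 is shown because this gene tracked Col1a1 so closely. It holds 250 bases up to the start on the plus strand of chromosome 1 (GRCm38.p6, chr1:45311288-45311537), from RefSeq, with a match to TATAAA in capitals.
Col3a1: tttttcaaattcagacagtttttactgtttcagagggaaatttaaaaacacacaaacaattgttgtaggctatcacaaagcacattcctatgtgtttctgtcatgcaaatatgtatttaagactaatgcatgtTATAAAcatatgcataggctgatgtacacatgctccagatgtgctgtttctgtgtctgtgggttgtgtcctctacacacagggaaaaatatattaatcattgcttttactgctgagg
It has 0 CpG dinucleotides and 35.2% G and C, where the medians over all 32851 such promoter windows were 6 CpG and 52.4%.

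Type V collagen, which starts type I fibrils, had smaller fitted log2FCs than type I. Col5a1 was at 88.2 and 100.2 CPM against 159 and 102 CPM, Col5a2 at 97.3 and 129 against 176 and 124 CPM, and Col5a3 at 44.6 and 59.0 against 76.1 and 55.4 CPM. The groups overlapped for Col5a2 and Col5a3 and touched for Col5a1, whose nearest libraries were 100.2 and 102 CPM. Their log2FCs were -0.47 (SE 0.27), -0.41 (SE 0.26) and -0.34 (SE 0.26), with adjusted p of 0.517, 0.574 and 0.661 in edgeR. Relative to Col1a1 counts, Col5a2 was at 0.344 in Ezh2Y646N replicate 1 and at 0.115 to 0.154 in the other 3 libraries. Col5a2 lies tail to tail with Col3a1 on chromosome 1 (45374321 to 45503282), 24614 bases apart.

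Among the fibrillar genes of cartilage type, Col11a1, which nucleates fibrils with type II and type V, was at 24.5 and 16.8 CPM in the Ezh2Y646N libraries and at 68.1 and 32.0 CPM in the NrasQ61K libraries. The groups did not overlap. Its log2FC was -1.27 (SE 0.39, edgeR's adjusted p = 0.170 and DESeq2's 0.0312). Col27a1, a fibrillar collagen known from cartilage, lay the other way, at 51.0 and 29.0 CPM against 22.5 and 15.3 CPM, with a log2FC of 1.08 (SE 0.34, edgeR's adjusted p = 0.187). Both Ezh2Y646N libraries were above both NrasQ61K libraries. Col2a1, the chain of cartilage collagen, Col11a2 and Col24a1 stayed at 1.20 to 7.84 CPM in every library, and their log2FCs of 1.15, -0.45 and 0.46 had SEs of 0.52 to 0.62. No adjusted p among them was below 0.486 in edgeR.

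Within each group the abundant fibrillar and type VI genes kept one order of libraries, which the FACIT genes Col12a1 and Col14a1 did not share. All 9 fibrillar and type VI genes at 40 CPM or more in every library were lower in Ezh2Y646N replicate 1 than in replicate 2, and higher in NrasQ61K replicate 1 than in replicate 2. Summed over the 11 fibrillar genes, the level was 1064 and 2295 CPM in the Ezh2Y646N libraries and 4193 and 2532 CPM in the NrasQ61K libraries. The Ezh2Y646N replicates were thus about as far apart as the group means, 1679 ± 871 and 3362 ± 1174 CPM (SD, n = 2 each), which differed by 2.0-fold. Fibroblast markers were also lower in both Ezh2Y646N libraries: the 15 markers summed to 778 and 879 CPM against 1418 and 1485 CPM, with Dcn, a proteoglycan that coats collagen fibrils, at 46.2 and 43.7 CPM against 261 and 103 CPM. The order of libraries was the reverse of the fibrillar one for the marker sum within NrasQ61K and for Dcn within Ezh2Y646N. Col1a1 counts per Dcn count were 6.12 and 19.2 in the Ezh2Y646N libraries and 5.86 and 8.91 in the NrasQ61K libraries. Their part in the fibrillar result was not tested.

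All 5 tested type VI genes had a log2FC below 0. Col6a3 (ENSMUSG00000048126, chromosome 1, 90765923 to 90843971, minus strand) encodes its longest chain and was at 68.3 and 101 CPM in the Ezh2Y646N libraries and at 424 and 213 CPM in the NrasQ61K libraries. Every Ezh2Y646N library was below every NrasQ61K library. Means were 84.6 ± 23.1 and 319 ± 149 CPM (SD, n = 2 each), a log2FC of -1.91 with an SE of 0.37. Its adjusted p lay at the threshold, 0.0507 in edgeR and 0.0509 in limma voom, and was 5.8e-06 in DESeq2. With 1 library left out at a time, edgeR's adjusted p for Col6a3 ran from 0.000457 (without NrasQ61K replicate 2) to 0.236 (without Ezh2Y646N replicate 1).

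Col6a1 and Col6a2, which share chromosome 10 with 85161 bases between them and assemble with Col6a3, followed it. Col6a1 was at 45.1 and 73.6 CPM against 184 and 118 CPM, a log2FC of -1.35 (SE 0.33, edgeR's adjusted p = 0.0964). Col6a2 was at 48.6 and 88.5 CPM against 206 and 139.9 CPM, a log2FC of -1.33 (SE 0.34, edgeR's adjusted p = 0.108). Neither gene's groups overlapped. The ratio of Col6a1 to Col6a2 counts stayed between 0.832 and 0.928 in the 4 libraries. Col6a3 over Col6a1 was 1.52 and 1.37 in the Ezh2Y646N libraries and 2.30 and 1.82 in the NrasQ61K libraries. The ratio was lower in both Ezh2Y646N libraries, and this difference was not tested.

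The window before Col6a3 is shown as that of the gene nearest the threshold among those that were lower. It lies on the minus strand (GRCm38.p6, chr1:90843972-90844221, from RefSeq).
Col6a3: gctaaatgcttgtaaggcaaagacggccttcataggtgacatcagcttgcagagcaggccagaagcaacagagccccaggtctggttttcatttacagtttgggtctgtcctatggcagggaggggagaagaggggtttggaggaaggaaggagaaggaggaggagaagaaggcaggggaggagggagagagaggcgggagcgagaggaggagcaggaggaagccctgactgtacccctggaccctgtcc
It has 3 CpG dinucleotides and 57.2% G and C, and it is all in lower case because none of the 3 motifs marked in the other windows is in it on either strand.

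The other type VI chains lie side by side on chromosome 9 and were scarce. Col6a5 was at 1.49 and 0.552 CPM against 3.22 and 3.31 CPM, without overlap, and its log2FC was -1.65 (SE 0.68, edgeR's adjusted p = 0.322). Col6a6 was at 1.09 and 0.483 CPM against 5.69 and 0.815 CPM, so its groups overlapped and its log2FC was -2.01 (SE 0.98), with NrasQ61K replicate 1 well above the other libraries. Col6a4 was too low to be tested, at 0.345 to 0.959 CPM. Over the class the sums were 165 and 264 CPM against 824 and 476 CPM, with means of 215 ± 70.3 and 649.98 ± 246 CPM (SD, n = 2 each), a 3.03-fold difference without overlap.

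The FACIT collagens split. Col12a1, which links type I fibrils to other matrix, was at 150.3 and 170.4 CPM in the Ezh2Y646N libraries and at 279 and 468 CPM in the NrasQ61K libraries. The groups did not overlap, and the log2FC was -1.22 (SE 0.29, edgeR's adjusted p = 0.0964, DESeq2's 0.00325). Its level did not follow that of Col1a1 inside the groups: the ratio of their counts was 0.532, 0.203, 0.182 and 0.508 in the order of libraries used above. Col14a1, a relative of Col12a1 on dermal fibrils, was at 123 and 65.0 CPM against 70.6 and 59.0 CPM (log2FC 0.54, SE 0.32), and Col16a1, found near the dermal-epidermal junction, was at 211 and 337 CPM against 259.7 and 425 CPM (-0.32, SE 0.33). For both the groups overlapped. Col20a1 was at 23.2 and 35.7 CPM against 16.8 and 20.8 CPM, and Col9a3, a chain of cartilage type IX, at 1.90 and 1.93 CPM against 0.948 and 1.77 CPM; their adjusted p in edgeR were 0.396 and 0.843.

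The multiplexins Col15a1 and Col18a1 lie in basement membrane zones, and Col18a1 yields the fragment endostatin. Col15a1 (chromosome 4, 47208161 to 47313167) was at 46.6 and 38.8 CPM in the Ezh2Y646N libraries and at 141 and 75.2 CPM in the NrasQ61K libraries. Its groups did not overlap and its log2FC was -1.34 (SE 0.32, edgeR's adjusted p = 0.0972, DESeq2's 0.00365). Col18a1 was at 268 and 258 CPM against 314 and 494 CPM, a log2FC of -0.62 (SE 0.28, edgeR's adjusted p = 0.372). Its span overlaps that of Slc19a1 on the opposite strand. Slc19a1 was at a mean of 10.4 CPM and Col18a1 at 334 CPM, and whether reads of the overlap were miscounted was not tested. Endothelial markers moved with Col15a1: the 12 markers summed to 197 and 127 CPM against 305 and 295 CPM, and all 12 had a fitted log2FC below 0 (median -0.76). EdgeR called 0 of these markers and DESeq2 1 lower, and 5 were lower at an unadjusted p under 0.05. Over all genes 2.72% were called lower by DESeq2, 7.02% were lower at the unadjusted p and 54.0% were below 0. The part of these markers in the Col15a1 values was not tested.

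The 6 chains of type IV collagen had fitted log2FCs between -0.36 and 0.56, and the libraries of Col4a6 were far apart. Col4a1 (chromosome 8, 11198423 to 11312826, minus strand), a chain of all basement membranes, was at 407 and 281 CPM in the Ezh2Y646N libraries and at 379.6 and 399 CPM in the NrasQ61K libraries. Col4a2 (chromosome 8, 11312805 to 11449287, plus strand), its head-to-head neighbour, was at 245 and 184 CPM against 260.2 and 292 CPM. The log2FCs were -0.18 (SE 0.26) and -0.36 (SE 0.24), with adjusted p of 0.849 and 0.595 in edgeR. The groups overlapped for Col4a1, and the ratio of Col4a1 to Col4a2 counts was 1.66, 1.53, 1.46 and 1.37. The spans of these genes overlap by 22 bases, and whether the counting used strand is not given in the sources used here. Unlike the endothelial marker Pecam1, at 28.2 and 19.8 CPM against 47.0 and 40.7 CPM, the level of Col4a1 did not separate the groups. Col4a1 had 14.5 and 14.2 counts per Pecam1 count in the Ezh2Y646N libraries and 8.08 and 9.81 in the NrasQ61K libraries. This ratio was higher in both Ezh2Y646N libraries, and the difference was not tested.

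The other type IV pairs are also divergent genes. Col4a3 and Col4a4, chains of kidney and other specialised basement membranes, lie 71 bases apart on chromosome 1 (82586921 to 82722059 and 82448423 to 82586849) and were at 2.27 to 4.21 and 6.32 to 7.77 CPM. Their log2FCs were 0.56 (SE 0.51) and -0.25 (SE 0.35). Col4a5 (chromosome X, 141475385 to 141689234, plus strand), which joins Col4a6 in the basement membrane of skin, was at 48.6 and 47.4 CPM in the Ezh2Y646N libraries and at 51.8 and 60.9 CPM in the NrasQ61K libraries. It was among the most even members, with a log2FC of -0.23 (SE 0.22, edgeR's adjusted p = 0.754).

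Col4a6 (ENSMUSG00000031273, chromosome X, 141165403 to 141474076, minus strand) varied most among the tested members. It was at 42.8 CPM in Ezh2Y646N replicate 1 and 3.25 CPM in replicate 2, and at 1.58 CPM in NrasQ61K replicate 1 and 47.0 CPM in replicate 2, from 744, 47, 25 and 980 counts. Each group thus held 1 high and 1 low library, 29.7-fold apart from highest to lowest. The log2FC was -0.08 with an SE of 2.19, so the comparison of groups says nothing about this gene. Col4a6 over Col4a5 counts was 0.879, 0.0685, 0.0305 and 0.772, although the starts of these genes lie 1308 bases apart. The high and low pairs did not follow the Y-linked RNA, which only Ezh2Y646N replicate 2 lacked.

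The windows before this pair of genes are shown side by side because the starts lie so close and the levels were so unlike. The Col4a6 window lies on the minus strand (GRCm38.p6, chrX:141474077-141474326) and the Col4a5 window on the plus strand (chrX:141475169-141475384), both from RefSeq, and the latter stops after 216 bases, where an annotated exon of GENCODE begins. Capitals mark a match to GGGCGG or to CCAAT, on either strand.
Col4a6: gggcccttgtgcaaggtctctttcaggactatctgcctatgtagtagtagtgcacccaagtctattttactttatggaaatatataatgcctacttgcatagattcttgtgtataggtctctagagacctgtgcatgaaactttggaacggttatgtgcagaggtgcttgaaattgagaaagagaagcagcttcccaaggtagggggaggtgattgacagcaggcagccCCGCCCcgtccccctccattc
Col4a5: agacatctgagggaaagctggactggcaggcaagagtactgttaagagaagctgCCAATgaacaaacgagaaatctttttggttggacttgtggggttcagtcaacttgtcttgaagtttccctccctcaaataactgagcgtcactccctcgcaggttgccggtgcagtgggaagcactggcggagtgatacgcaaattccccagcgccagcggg
The Col4a6 window has 3 CpG dinucleotides and 47.6% G and C, the Col4a5 window 8 CpG and 52.3%.

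**Figure D3:**
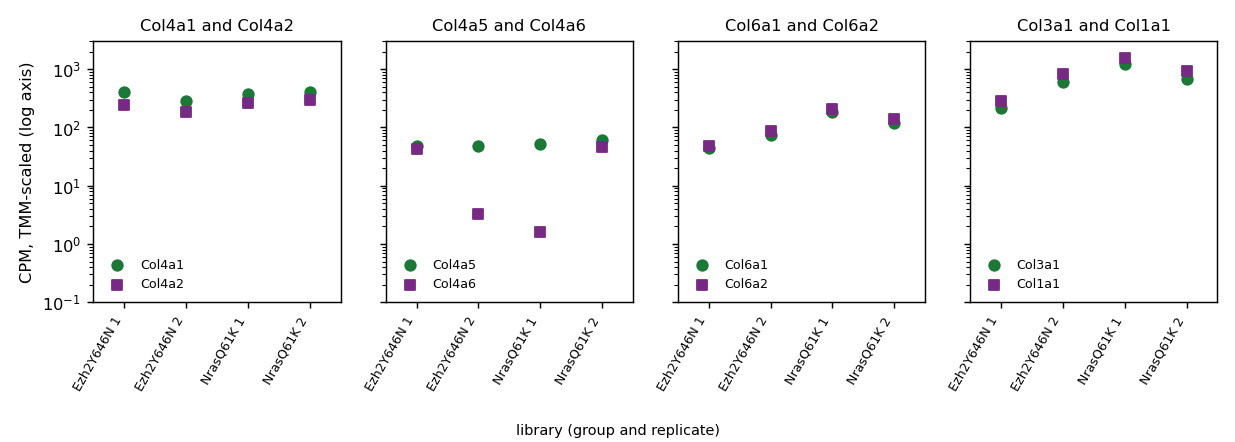
TMM-scaled CPM (log axis) in each library for 4 pairs of chains that assemble or occur together, with 1 marker per gene and library. Col4a1 and Col4a2, Col6a1 and Col6a2, and Col3a1 and Col1a1 run in parallel, while Col4a6 lies at 3.25 and 1.58 CPM in libraries where Col4a5 stays at 47.4 and 51.8 CPM.

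The epithelial collagens did not separate the groups, and no difference beyond the spread between replicates was detected. Col17a1 (ENSMUSG00000025064, chromosome 19, 47646344 to 47692094, minus strand) was at 1702 and 3090.4 CPM in the Ezh2Y646N libraries and at 1121 and 2433 CPM in the NrasQ61K libraries. The groups overlapped, and the log2FC was 0.43 (SE 0.45, edgeR's adjusted p = 0.779). Col7a1 was at 309 and 528 CPM against 268 and 326 CPM, a log2FC of 0.50 (SE 0.31, edgeR's adjusted p = 0.559), also with overlap. Basal keratinocyte markers ran in the same order of libraries as Col17a1 within each group: their sums were 14591 and 21646 CPM against 11139 and 24455 CPM, 0 of 10 were called by edgeR or DESeq2 (0 at an unadjusted p under 0.05), and Krt5, the defining basal keratin, was at 4932 and 7466 CPM against 3750.4 and 8762 CPM. Col17a1 had 0.345, 0.414, 0.299 and 0.278 counts per count of Krt5. Their part in the Col17a1 values was not tested.

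Among the other transmembrane collagens, Col25a1 was the single member past the threshold. Col25a1 (ENSMUSG00000058897, chromosome 3, 130131501 to 130599877, plus strand), a membrane collagen known from neurons and from the innervation of muscle, was at 16.7 and 28.04 CPM in the Ezh2Y646N libraries and at 4.04 and 4.84 CPM in the NrasQ61K libraries. Both Ezh2Y646N libraries were above both NrasQ61K libraries. Group means were 22.4 ± 8.0 and 4.44 ± 0.565 CPM (SD, n = 2 each), from 64 to 406 counts per library, and the fitted difference was 5.02-fold. Col25a1 rose by 2.33 on the log2 scale (SE 0.37, edgeR's adjusted p = 0.0329), and limma voom gave an adjusted p of 0.0498. Without Ezh2Y646N replicate 2 the log2FC was 1.90 and edgeR's adjusted p 0.0760, so the call rests on that library. Per length it was a minor collagen, at a mean of 1.04 CPM per kb.

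Schwann cell markers were read beside Col25a1, as a nerve cell type. The 12 markers summed to 1381 and 833 CPM in the Ezh2Y646N libraries and to 501 and 833 CPM in the NrasQ61K libraries. Of the 12, 9 had a log2FC above 0, and their median was 0.52. EdgeR called 1 of them higher and DESeq2 4, where they called 1.10% and 3.63% of all genes higher, and 5 were higher and 1 lower at an unadjusted p under 0.05 (all genes 7.28% and 7.02%). With a library left out, edgeR's count of higher markers was 4 without Ezh2Y646N replicate 2 and 0 without any of the other libraries. Within the Ezh2Y646N group the library with the higher sum, replicate 1, had the lower Col25a1. Their part in the Col25a1 result was not tested.

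The window before the start of Col25a1 that RefSeq gives is shown as that of the member that passed the test. It lies on the plus strand (GRCm38.p6, chr3:130180595-130180844), inside the longer gene span of GENCODE and outside its exons. Capitals mark matches to CCAAT and to GGGCGG on either strand.
Col25a1: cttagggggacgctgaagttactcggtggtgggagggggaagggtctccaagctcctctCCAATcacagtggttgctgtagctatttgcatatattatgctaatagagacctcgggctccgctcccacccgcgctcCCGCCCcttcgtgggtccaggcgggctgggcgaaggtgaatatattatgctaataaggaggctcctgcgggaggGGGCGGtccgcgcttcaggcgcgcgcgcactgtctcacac
It has 18 CpG dinucleotides and 60.4% G and C, with 1 match to CCAAT and 2 to GGGCGG.

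Col13a1, a transmembrane collagen of cell contacts and neuromuscular junctions, was at 3.45 CPM in both Ezh2Y646N libraries and at 16.2 and 7.67 CPM in the NrasQ61K libraries. The groups did not overlap, and the log2FC was -1.79 (SE 0.46, edgeR's adjusted p = 0.111, DESeq2's 0.0161). Col23a1 was at 26.8 and 55.2 CPM against 39.7 and 43.2 CPM. Its Ezh2Y646N libraries lay on either side of the NrasQ61K libraries, and its log2FC was -0.02 (SE 0.35). The class thus held a gene that rose and another with a log2FC of -1.79.

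The remaining members were scarce. Of the short-chain collagens, Col8a1 and Col8a2, known from vessel walls and the cornea, were at 3.16 to 7.05 and 4.42 to 19.2 CPM, with log2FCs of -0.72 (SE 0.45) and -0.39 (SE 0.62). Col10a1, a marker of hypertrophic cartilage, was at 0.230 and 0.345 CPM against 1.58 and 2.11 CPM, from 4 to 44 counts, a log2FC of -2.67 (SE 0.82, edgeR's adjusted p = 0.170). It was the 1 member that passed the filter only through the NrasQ61K libraries. Its whole span lies within that of Nt5dc1 on the opposite strand, which was at a mean of 21.98 CPM, so its counts are uncertain. Of 8 chondrocyte markers, Acan was at 2.47 and 0.552 CPM against 13.0 and 4.36 CPM, Matn1 was at 0 in all libraries, and the summed level of 158 to 686 CPM came mostly from Sox9, which hair follicle cells also express. Col28a1, known from Schwann cells of peripheral nerve, was at 8.62 and 6.28 CPM against 1.96 and 3.69 CPM, without overlap (log2FC 1.39, SE 0.48, edgeR's adjusted p = 0.226). Col26a1 was at 0.345 to 1.01 CPM with a log2FC of -0.25 (SE 0.90).

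The 5 members too low to be tested are Col6a4, above, and 4 FACIT genes. Col19a1 had 10 counts in Ezh2Y646N replicate 1 and 0 in the other 3 libraries. There 3 counts, about the upper 95% limit for a count of 0, stand for 0.144 to 0.207 CPM. Col9a1 and Col9a2 of cartilage type IX were at 0.690 and 0.276 CPM against 0 and 0.192 CPM, and at 0.517 and 1.24 CPM against 0.190 and 0.144 CPM. Col22a1 was at 0.632 and 0.345 CPM against 0.0632 and 0.0959 CPM. The last 3 had their higher values in the Ezh2Y646N libraries, at 18 counts or fewer in each.

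Set side by side, the medians of the classes lay on both sides of 0. Over their tested members the median log2FC was -0.45 for 11 fibrillar genes, -1.65 for 5 type VI genes, 0.48 for 5 FACIT genes, -0.20 for 6 basement membrane genes and 0.21 for 4 transmembrane genes. The signs for the fibrillar, type VI, basement membrane and FACIT classes held in every alternative fit and with each library left out. The FACIT medians, however, were over 9 genes in DESeq2 and without the filter, and over 6 to 8 with a library left out. The genes added there were too low for the main test, so in those fits the FACIT sign was not checked on the same genes. The sign for the transmembrane class did not: its median was -0.35 without Ezh2Y646N replicate 2 and -0.05 without NrasQ61K replicate 1. Without NrasQ61K replicate 1, the fibrillar median also moved to -0.11. The FACIT sum, 512 and 612 CPM against 627 and 976 CPM, lay lower in the Ezh2Y646N libraries although the median of its genes was above 0, since Col12a1 and Col16a1 hold most of the counts. The basement membrane sums were 753 and 526 CPM against 703 and 809 CPM, and the transmembrane sums, nearly all Col17a1, were 1749 and 3177 CPM against 1181 and 2489 CPM. Both pairs of groups overlapped, and differences between classes were not tested.

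**Figure D4:**
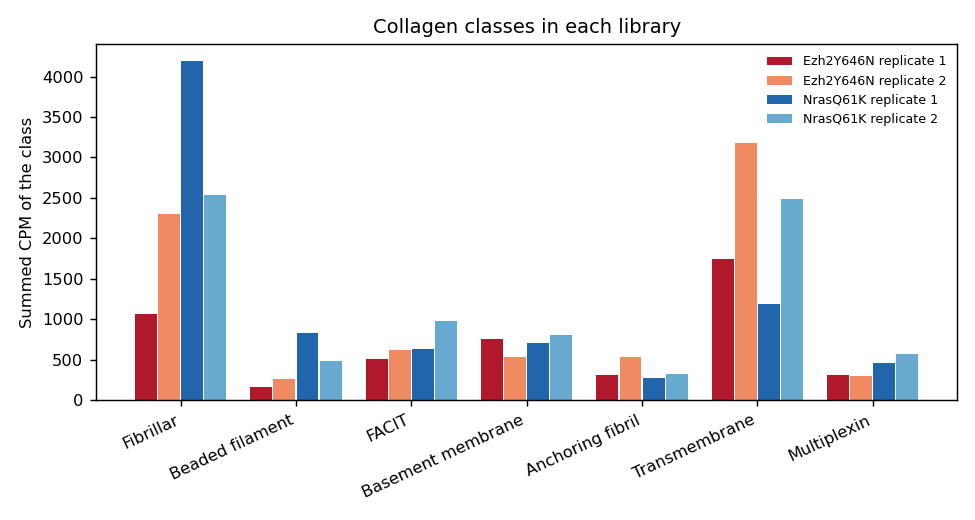
Summed TMM-scaled CPM of each collagen class in each library, bars from 0, without the short-chain and other genes, whose sums were at most 28.4 CPM. The fibrillar and beaded filament bars are lower in both Ezh2Y646N libraries than in both NrasQ61K libraries, while the basement membrane and transmembrane bars overlap.

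Genes that make and mature collagen were mostly below 0 as well, with few calls. Of 19 tested genes for folding and modification, 0 were called by edgeR or DESeq2, 4 were lower at an unadjusted p under 0.05, and 15 were below 0 (median -0.29). Plod2 and Plod3, lysyl hydroxylases, had log2FCs of -1.10 (SE 0.36) and -0.58 (SE 0.24), and P4ha2, a prolyl hydroxylase subunit, one of -0.75 (SE 0.32), with adjusted p of 0.199 to 0.342 in edgeR. Of 12 tested genes for propeptide removal and cross-linking, 0 were called by edgeR and 5 by DESeq2, all lower, 7 were lower at an unadjusted p under 0.05, and 9 were below 0 (median -1.01). Over all genes these shares were 2.72% in DESeq2, 7.02% at the unadjusted p and 54.0% below 0. Bmp1, the protease that trims fibrillar procollagen, was at 33.4 and 39.99 CPM against 82.9 and 67.6 CPM (log2FC -1.04, SE 0.24, edgeR's adjusted p = 0.0854). The lysyl oxidases Loxl1 and Loxl2 had log2FCs of -1.69 (SE 0.39) and -1.48 (SE 0.34). None of these 3 genes had overlapping groups, but they were named for the smallest p in the list. Of all 12, 8 were lower and 1 higher without overlap, where 23.1% and 21.1% of all genes were.

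Among 14 tested genes for breakdown and uptake of collagen, 1 fell and 0 rose in edgeR, where it called 0.673% and 1.10% of all genes. Mmp9, a gelatinase, was at 1.84 and 1.04 CPM in the Ezh2Y646N libraries and at 9.23 and 10.5 CPM in the NrasQ61K libraries. It fell by 2.77 on the log2 scale (SE 0.47, edgeR's adjusted p = 0.0375). That call was lost in limma voom (adjusted p = 0.0562) and without Ezh2Y646N replicate 1 (edgeR's 0.0527) or replicate 2 (0.0736). Mmp2, another gelatinase, and Ctsk, a collagen-degrading cathepsin, had log2FCs of -1.14 (SE 0.27) and -1.53 (SE 0.42), with adjusted p of 0.0872 and 0.133 in edgeR and 0.00887 and 0.0160 in DESeq2. DESeq2 called 4 genes of the list lower (2.72% of all genes). At an unadjusted p under 0.05, 6 were lower and 2 higher (7.02% and 7.28% of all genes). The median of the 14 was -0.93, with 11 below 0, where 54.0% of all genes were.

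Of 9 tested collagen receptors, 0 were called by edgeR or DESeq2, 2 were lower at an unadjusted p under 0.05, and 7 were below 0 (median -0.29). Over all genes 7.02% were lower at that p and 54.0% were below 0. Adgrg1, a receptor of type III collagen, was at 115 and 116 CPM against 178 and 237 CPM (log2FC -0.84, SE 0.23, edgeR's adjusted p = 0.134), and Itga11 and Itga10, collagen-binding integrin chains, had log2FCs of -1.95 (SE 0.56) and -1.28 (SE 0.73). Of 13 tested genes for proteins bound to fibrils, 1 fell in edgeR (0.673% of all genes) and 10 were below 0 (54.0% of all genes), with a median of -0.84. DESeq2 called 3 of the list lower, and 4 were lower and 2 higher at an unadjusted p under 0.05, where the shares over all genes were 2.72%, 7.02% and 7.28%. Dpt, which binds decorin and collagen, was at 3.79 and 4.14 CPM against 20.5 and 13.1 CPM and fell by 2.08 on the log2 scale (SE 0.37, edgeR's adjusted p = 0.0418). It lost its call in limma voom (adjusted p = 0.0691) and without Ezh2Y646N replicate 1, Ezh2Y646N replicate 2 or NrasQ61K replicate 1 (edgeR's 0.129, 0.0722 and 0.0779). Dcn had a log2FC of -2.02 (SE 0.41, edgeR's adjusted p = 0.0589) and Sparc, a collagen chaperone of the matrix, one of -0.88 (SE 0.24).

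**Figure D5:**
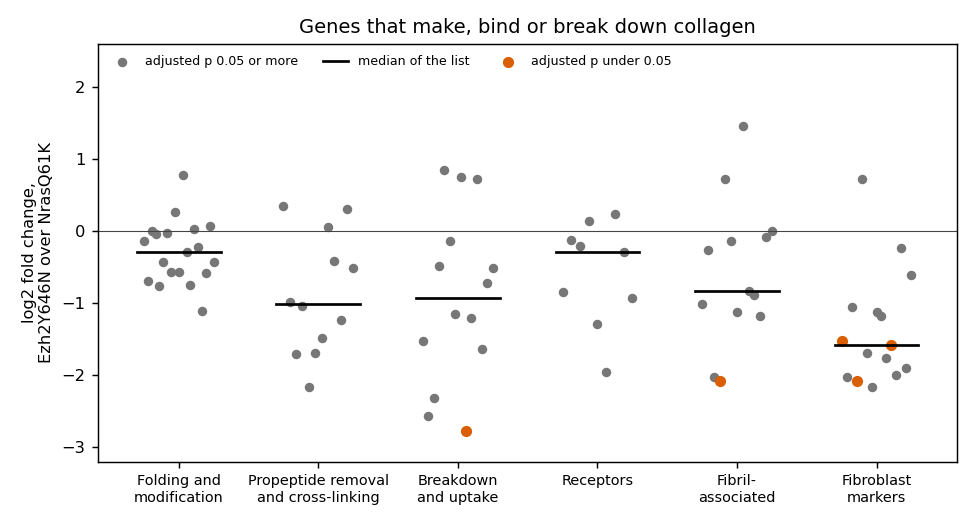
log2FC (Ezh2Y646N over NrasQ61K) of every tested gene in 5 lists of collagen biology and in the fibroblast markers, with 1 point per gene and a black line at each list's median. All 6 medians lie below 0, from -1.58 to -0.29, and the orange points, with an adjusted p under 0.05, are Mmp9, Dpt (in 2 lists), Cd34 and Pdgfrb.

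Markers of the cell types that could carry these RNAs differed between the groups as follows. Of 15 fibroblast markers, 3 fell (Dpt, Cd34 and Pdgfrb) and 14 were below 0, with a median of -1.58. The count was 0 in limma voom, 1 under DESeq2's size factors in edgeR, and 8 in DESeq2. Over all genes edgeR called 0.673% lower, DESeq2 2.72% and limma voom 0.449%, and 54.0% were below 0. With 1 library left out the median of the markers ran from -1.73 to -1.20. Vim, the highest of them in CPM, was at 505 and 558 CPM against 595 and 1024 CPM and is also expressed by pigment cells. The 9 tested pericyte and smooth muscle markers held 1 that fell, Acta2 (0 called without Ezh2Y646N replicate 1 or without replicate 2), and summed to 380 and 411 CPM against 312 and 455 CPM, with Cspg4 and Notch3 the highest in CPM. Of 12 macrophage and dendritic cell markers, all were below 0 (median -1.16), with sums of 79.5 and 149 CPM against 170 and 408 CPM, led by Cd74 and Lyz2. EdgeR called 0 of them and DESeq2 3 lower (2.72% of all genes), and 6 were lower at an unadjusted p under 0.05 (7.02% of all genes).

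The suprabasal and hair lists had medians further from 0 than any collagen class. Over all genes edgeR called 1.10% higher and 0.673% lower, and 46.0% were above 0 and 54.0% below. The 9 tested suprabasal markers were all above 0 with a median of 2.53, and 4 rose (Lor, Krt77, Ivl and Dsc1); Krt10 was at 24868 and 16045 CPM against 1650.4 and 4309 CPM. Without Ezh2Y646N replicate 1, 1 of the 9 was called, and without either NrasQ61K library all 9 were. The 9 tested hair shaft and root sheath markers were all below 0 with a median of -2.78, and 4 fell (Krt25, Krt35, Krt71 and Tchh), with 2 called under DESeq2's size factors in edgeR and 0 without Ezh2Y646N replicate 2. DESeq2 called all 9 suprabasal markers higher and all 9 hair markers lower, where it called 3.63% and 2.72% of all genes. Limma voom called 7 and 5, where it called 1.05% and 0.449%. With keratin and keratin-associated genes left out of the total, the collagen shares were 0.643% for Ezh2Y646N and 0.881% for NrasQ61K.

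Promoter windows were found in RefSeq for 35 collagen genes, 38 windows in all, each read as the 250 bases before a start. A match to GGGCGG, the core of a Sp1 site, was in 57.9% of the collagen windows and 32.7% of all windows. CCAAT was in 34.2% and 33.8%, and TATAAA in 13.2% and 12.4%. Each motif was searched on both strands: the first as CCGCCC on the other strand, the second as ATTGG there, and the last as TTTATA. Matches to different motifs may overlap and were counted separately. The collagen windows had a median of 9.5 CpG dinucleotides and 59.0% G and C. A match is a description of letters only.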

How the data were processed

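RNA sequencing was done on 4 libraries of sorted mouse cells, 2 per group, made per the labels' protocols with a micro-scale RNA column kit and a stranded pico-input kit for total RNA that removes ribosomal RNA. The authors deposited whole-number read counts per Ensembl gene, with no normalization. STAR 2.5.4b, featureCounts, Trimmomatic, bcl2fastq 2.19 and edgeR are named, with the build GRCm38 and no roles, in the submitters' processing notes. The strand setting and annotation release were not given in the sources used here.

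GENCODE M21 (GRCm38) supplied symbols and 1-based coordinates for 22291 identifiers and lacked 233. The main test was edgeR 4.0.16's quasi-likelihood test (R 4.3.3): filterByExpr (minimum count 10, minimum total 15), TMM scaling, a robust fit with group as its term and 2 residual degrees of freedom, and Benjamini-Hochberg adjustment over all tested genes (threshold 0.05). The deposited counts were scaled to CPM with TMM-adjusted library sizes. CPM per kb used the union of a gene's GENCODE exons. The SE of a log2 fold change was derived from its F statistic. DESeq2 1.42.0, limma voom 3.58.1, other size factors, no filter, a fit that is not robust, a replicate block and each library left out were alternatives. The fits were tested on simulated data.

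The collagen genes, their classes, the 5 pathway lists and the 10 marker lists (226 distinct genes with the classes, 222 found) were chosen with earlier results of these data known. The genes to be named followed a rule: Ezh2, Nras, Tyr and Col1a1, collagen genes past the threshold or with an unadjusted p under 0.05, the 3 most abundant per kb in each class, neighbouring collagen genes, the 3 of smallest p in each pathway list and the 2 most abundant in each marker list. The other 9 collagen genes, and called list members outside the rule, were named after their values were seen. Ddx3y, Nt5dc1 and Slc19a1 were too. The result of 1 marker gene is not reported here.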

Additional observations from a re-analysis of the deposited data

How the results depend on the processing

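Counts of calls depended on the fit. The count of lower collagen genes, 0 in edgeR, was 10 without a filter on low counts, 7 in DESeq2 and 0 to 6 with a library left out. The count of higher ones, 1 in edgeR, was 2 without the filter and 0 to 1 with a library left out. Over all genes, 96 lower and 157 higher became 616 and 686 without the filter, 381 and 508 in DESeq2, and 43 to 393 and 49 to 730 with a library left out. The collagen median ran from -0.57 to -0.22 with a library left out, always below 0. Other size factors turned Col23a1 (0.0017) and Krt5 (0.0015) above 0, as did DESeq2 (0.0013 and 0.0011). Limma voom gave 0.32 for Col4a6 and 0.10 for Krt5. The cause of these differences was not tested.

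With the replicate number as a block, edgeR called 7 collagen genes lower and 3 higher, and 627 and 710 of all genes, and Col4a6 was at 0.29 and Krt5 at 0.082. The labels give no pairing, and the deviations of same-numbered libraries correlated at 0.108 across genes. This correlation cannot decide whether these libraries share more than a number.

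With single libraries left out, log2 fold changes that crossed 0 ran from -2.90 to 3.90 for Col4a6, -1.08 to 1.08 for Col8a2, -1.18 to 0.29 for Col26a1, -0.067 to 1.14 for Col17a1, -0.63 to 0.41 for Col23a1, -0.71 to 0.12 for Col16a1 and -0.47 to 0.059 for Col4a1. Among the other genes they ran from -0.55 to 0.59 for Ezh2, -0.22 to 0.064 for Nras, -0.019 to 0.78 for Cspg4, -0.24 to 0.47 for Notch3, -0.50 to 0.77 for Krt5, -0.90 to 0.57 for Krt14, -0.38 to 0.37 for Tyrp1 and -0.083 to 0.68 for Erbb3. None of these genes was called. Depth limited the 5 untested collagen genes, at 20 counts or fewer in every library.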

Other observations

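Col4a6 was 1 of 4 genes, of 14265 tested, in which both Ezh2Y646N replicate 1 and NrasQ61K replicate 2 exceeded both other libraries by more than 3 on the log2 scale (with 0.5 CPM added). This pattern was looked for after the values of Col4a6 were seen. The other 3 were the predicted genes Gm10800, Gm10801 and Gm21738. Gm10800 was at 1691 and 90.4 CPM in these libraries and at 0.414 and 4.11 CPM in the others. Gm10801 was at 51.0 and 10.4 CPM and Gm21738 at 50.5 and 4.17 CPM, with both at 0 in the other libraries.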
